A study of Canis lupus familiaris with 37 samples.

Results

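SHCBP1 (ENSCAFG00000003704), which encodes a protein that binds the SH2 domain of the adaptor SHC1, was followed as 1 of 32704 genes in RNA sequencing counts of 37 canine samples. The gene was taken by its identifier, as the study pairs it with the symbol, and it passed the filter on low values that left 15162 genes. Its values are given as TMM-normalized CPM, that is, counts scaled to the reads on genes of a library and adjusted by the trimmed mean of M-values (TMM) of edgeR, which allows for a few genes taking up a large share of it. CPM values are not divided by gene length, so that levels are compared between samples of 1 gene and never between genes.

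SHC1 passes signals from receptor tyrosine kinases to Ras and the MAP kinases. SHCBP1 also acts at the midbody, the bridge between daughter cells, where it associates with the centralspindlin complex in late cell division. Its mRNA is low in resting cells and higher in cycling ones, and lymph nodes hold resting lymphocytes beside dividing ones.

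The samples comprised 4 non-neoplastic lymph nodes used as controls, 12 multicentric B-cell lymphomas, 3 intestinal lymphomas, 1 T-cell lymphoma and 17 samples of 5 lymphoid cell lines. The primary tumors arose naturally in dogs, and the study handled the 3 intestinal lymphomas and the T-cell lymphoma as 1 group of probable T-cell lymphomas. The intestinal lymphomas were of uncertain phenotype, and the study placed them in this group by their expression in these same data. The group is therefore not independent of the values compared here. Of the lines of B-cell origin, CLBL-1 had 5 samples, CLBL-1M, established from a CLBL-1 tumor grown in a mouse, had 5, and GL-1 had 1, while the lines of T-cell origin were OSW with 4 samples and CL-1 with 2. All lines were cultured in the same medium and no sample carried a treatment. Several samples of 1 line are repeats of it, and since nothing states that they came from separate cultures, the spread between them may be technical. Genotype, breed, sex and age were not used.

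The libraries held 1962722 to 4863730 reads on genes, with a median of 2942360. Groups follow the sample titles, although the flow cytometry field went against the title for several samples, including all controls, the T-cell lymphoma and B-cell lymphoma replicates 6, 10 and 12. Control replicate 4 is called a T-cell lymphoma line in its source field, and the CLBL-1 and CLBL-1M titles are exchanged relative to the names of their data. Ambiguous reads, those overlapping several genes, made up 0.0977 to 0.229% of all reads in the 16 primary tumors and in control replicates 1 to 3. In the lines and control replicate 4 they made up 0.363 to 0.549%. Among the CLBL-1 and CLBL-1M libraries, CLBL-1 replicates 1 and 3 and CLBL-1M replicate 2 stood apart on the first principal component, which held 31.4% of the variance. Defining B- and T-cell markers could not be checked by symbol, since the tables used here pair no gene identifiers with symbols.

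SHCBP1 was higher in every lymphoma than in every control. In controls 1 to 4 it stood at 28.4, 13.5, 23.8 and 11.2 CPM, from 67, 27, 78 and 30 counts. The mean was 19.2 ± 8.20 CPM (SD, n = 4). All 4 control values rest on fewer than 100 counts, and the highest and the lowest differed by 2.53 times.

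In the 12 B-cell lymphomas SHCBP1 ranged from 39.1 to 129 CPM, with a median of 84.0 and a mean of 81.8 ± 31.4 CPM (SD, n = 12). Replicates 4, 3, 9, 1 and 8 formed the lower end, with 39.1, 48.2, 49.2, 52.5 and 58.7 CPM. Replicates 7, 2, 11, 10, 6, 5 and 12 followed at 82.1, 85.9, 102, 104, 110, 120 and 129 CPM. No B-cell lymphoma lay between 58.7 and 82.1 CPM. The 3 lymphomas whose flow cytometry field went against the title all belonged to the upper 7.

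The 3 intestinal lymphomas had 92.8, 142 and 146 CPM, and the T-cell lymphoma had 195 CPM, the highest of all 37 samples. The 4 together averaged 144 ± 41.9 CPM (SD, n = 4), and the lowest of them lay within the range of the B-cell lymphomas.

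The 5 CLBL-1 samples stood at 80.0, 112, 90.2, 120 and 126 CPM, with a mean of 106 ± 19.8 CPM (SD, n = 5). The CLBL-1M samples stood at 116, 90.0, 127, 139 and 126 CPM, with a mean of 119 ± 18.4 CPM (SD, n = 5). The 3 libraries that stood apart held the 3 lowest of these 10 values. OSW had 94.1, 131, 124 and 118 CPM (117 ± 16.01, SD, n = 4), and CL-1 had 127 and 113 CPM (120 ± 9.67, SD, n = 2). All 16 samples of these 4 lines lay above every control, at 80.0 to 139 CPM.

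GL-1 had 1 count of SHCBP1 among 2854473 reads on genes. This corresponds to 0.313 CPM, with an exact 95% Poisson interval of 0.00789 to 1.74 CPM that covers counting error only. A level of 3 counts in that library represents 0.935 CPM, so that the gene was at the limit of detection there. Each library of the 4 other lines had 163 to 410 counts.

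**Figure D1:**
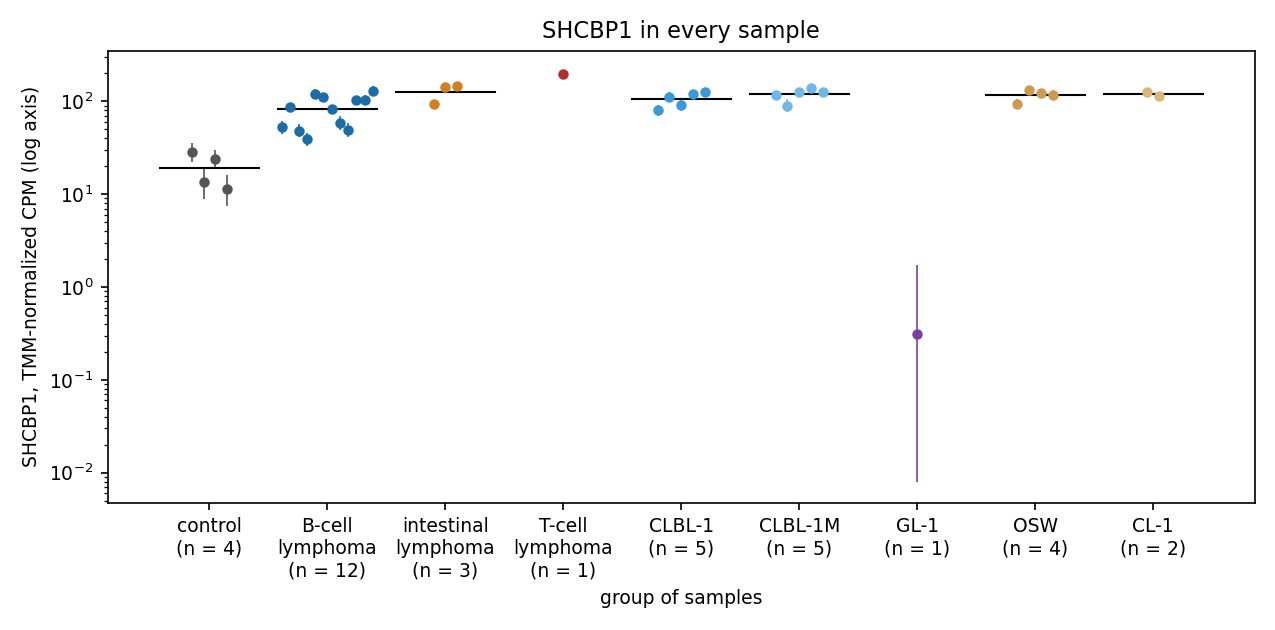
SHCBP1 in TMM-normalized CPM (logarithmic vertical axis) in each of the 37 samples, by group; points are samples in replicate order, thin bars are exact 95% Poisson intervals for counting error, and horizontal lines are group means. All lymphomas and 4 of the 5 lines lie at 39.1 CPM or more, the controls at 11.2 to 28.4 CPM, and GL-1 at 0.313 CPM.

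Ordered by their means, the groups were GL-1, controls, B-cell lymphomas, CLBL-1, OSW, CLBL-1M, CL-1 and probable T-cell lymphomas. The step from the controls to the B-cell lymphomas was free of overlap. The ranges of CLBL-1, OSW, CLBL-1M and CL-1 overlapped one another, and their means of 106 to 120 CPM differed by less than the SD within CLBL-1.

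Relative to the controls, the fitted log2 difference was 2.08 (SE 0.30) in the B-cell lymphomas and 2.90 (SE 0.34) in the probable T-cell lymphomas. For the lines it was 2.64 (SE 0.38, CL-1), 2.63 (SE 0.33, CLBL-1M), 2.60 (SE 0.34, OSW) and 2.45 (SE 0.33, CLBL-1). These 6 differences share the same 4 controls. They are given without a test, because the study singled SHCBP1 out by its differences from the controls. With control replicate 4 as the lone control they were 2.85 to 3.66, and with control replicates 1 to 3 they were 1.85 to 2.67. In these bulk tissues, fewer cells that express a gene and less of its RNA per cell cannot be told apart.

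Being above every control in all 32 samples other than GL-1 was a pattern of 517 genes, or 3.41% of those tested, SHCBP1 included. Of these 517 genes, 492 were above every control in GL-1 too, and 4 were below every control there. Besides SHCBP1, the 4 were ENSCAFG00000007258, ENSCAFG00000023576 and ENSCAFG00000030705, named after their values were seen. These 3 remained well expressed in GL-1, with 57.0 CPM against 65.6 to 85.6 CPM in the controls, 27.9 against 38.5 to 47.4 CPM and 85.2 against 100 to 114 CPM, respectively. SHCBP1 was the 1 gene of the 4 at the limit of detection in GL-1.

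FLT3 (ENSCAFG00000006716), a receptor tyrosine kinase of early blood cell precursors that the study set beside SHCBP1, had the mirrored pattern. It stood at 27.3 to 39.0 CPM in the controls, at 0.278 to 6.49 CPM in the 32 other samples and at 443 CPM in GL-1, from 1415 counts. This mirrored pattern was shared by 21 genes of the 15162 tested. GL-1 thus held the lowest SHCBP1 and the highest FLT3 of the 37 samples.

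The groups were next compared with each other in 6 contrasts that hold no control, with edgeR's quasi-likelihood test over all 15162 genes and Benjamini-Hochberg adjustment. SHCBP1 was lower in the B-cell lymphomas than in the probable T-cell lymphomas, by 0.82 on the log2 scale (log2 difference -0.82, SE 0.24, edgeR adjusted p = 0.0100), or 0.568 times the level. In this contrast 30.9% of all genes were called, and 19.5% were lower in the B-cell lymphomas. The call was lost without the T-cell lymphoma (log2 difference -0.63, edgeR adjusted p = 0.0774) and when only these 2 groups were fitted (log2 difference -0.82, edgeR adjusted p = 0.0517). Without the 3 B-cell lymphomas of contradictory label, the log2 difference was -1.02 (edgeR adjusted p = 0.00133).

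SHCBP1 was also lower in the B-cell lymphomas than in the mean of CLBL-1 and CLBL-1M, by 0.46 on the log2 scale (SE 0.19, edgeR adjusted p = 0.0325), a contrast in which 64.3% of all genes were called and the median over all genes was 0.23. CLBL-1M was established from CLBL-1, so that on the side of the lines the p-value rests on repeats of 1 lineage. It does not measure the spread between B-cell lines, and GL-1 was not in this contrast. The call was lost without any 1 of CLBL-1 replicates 4 and 5, CLBL-1M replicates 1 and 4, intestinal lymphoma replicate 1 and control replicate 4, with edgeR adjusted p-values of 0.0546 to 0.0799. The B-cell lymphomas were not left out 1 at a time in this contrast or the one before it. Without the 3 CLBL libraries that stood apart, the log2 difference was -0.59 (edgeR adjusted p = 0.0149). The B-cell lymphomas and the lines also lay on different sides of the split in ambiguous reads. The part of that split in the difference cannot be told apart from the groups.

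The remaining 4 contrasts did not pass the test. The probable T-cell lymphomas exceeded the mean of OSW and CL-1 by 0.28 (95% interval -0.31 to 0.87, edgeR adjusted p = 0.441), where 48% of genes were called and the median over all genes was 0.30. The mean of CLBL-1 and CLBL-1M minus OSW was -0.05 (95% interval -0.58 to 0.47, edgeR adjusted p = 0.929), where 43.3% of genes were called. OSW minus CL-1 was -0.04 (95% interval -0.81 to 0.73, edgeR adjusted p = 0.994), where 30.8% of genes were called. CLBL-1 minus CLBL-1M was -0.18 (95% interval -0.74 to 0.39, edgeR adjusted p = 1), where 0 genes were called. Differences within these intervals remain possible with these samples, so that equal levels are not shown.

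The other genes of cell division were described with lists of identifiers that the study's functional tables print under its terms. These lists are partial, and since the study chose them on these samples, their direction is not independent evidence. SHCBP1 itself is in none of them. In the B-cell lymphomas 83 of 125 cell division genes were higher than in the controls at an edgeR adjusted p of 0.05, and 15 were lower, beside 22.9% and 24% of all genes. In the probable T-cell lymphomas 78 were higher and 9 lower, beside 21.4% and 15.9% of all genes. The median log2 difference of the list was 1.05 in both, against 0.01 and 0.09 over all genes. At the stricter adjusted p of 1e-05, which the study used, 27 and 23 members were higher, beside 2.38% and 1.33% of all genes.

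Other lists were counted in the same contrasts. Of all genes, 24% were lower and 22.9% higher in the B-cell lymphomas, and 15.9% were lower and 21.4% higher in the probable T-cell lymphomas. Of 82 extracellular matrix genes, which mark stroma, 63 were lower and 4 higher in the B-cell lymphomas, and 30 were lower and 7 higher in the probable T-cell lymphomas. Of 67 T cell activation genes, 35 were lower and 9 higher in the B-cell lymphomas, and 12 were lower and 11 higher in the probable T-cell lymphomas. In the lines with replicates, 52 to 72 of the extracellular matrix genes and 39 to 46 of the T cell activation genes were lower. Of all genes, 30.1 to 34.4% were lower and 22.7 to 26.2% higher in those lines. Of 49 B cell activation genes, 17 were higher and 7 lower in the B-cell lymphomas, and 9 and 18 in the probable T-cell lymphomas. The counts were 14 and 11 for CLBL-1, 14 and 10 for CLBL-1M, 8 and 33 for OSW and 10 and 39 for CL-1. The higher counts for CLBL-1 and CLBL-1M were near the share of all genes. In GL-1, where no test was possible, 6 were at least 2-fold higher than the controls, beside 20.1% of all genes. Another 28 were at least 2-fold lower, beside 26.8%. Their median log2 difference in GL-1 was -1.40, against -0.02 over all genes. The part of cell types other than the tumor cells in the higher cell division genes was not tested.

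For the lines with replicates, 85 members of the list were higher and 26 lower in CLBL-1, beside 25.8% and 34.4% of all genes. The counts were 88 and 26 for CLBL-1M (all genes 26.1% and 33.9%). OSW had 86 higher and 22 lower (26.2% and 30.6%), and CL-1 had 75 higher and 30 lower (22.7% and 30.1%). At 1e-05 the members higher were 63 for CLBL-1 (all genes 6.91%), 68 for CLBL-1M (6.82%), 56 for OSW (5.61%) and 36 for CL-1 (4.54%). For DNA replication, the copying of the genome before division, 35 to 41 of 53 members were higher and 4 to 10 lower in each of these 6 groups. Of all genes, 21.4 to 26.2% were higher and 15.9 to 34.4% lower in these groups. In GL-1, where no test was possible, 69 of 125 cell division genes were at least 2-fold higher than the mean of the controls, beside 20.1% of all genes, and 14 were at least 2-fold lower, beside 26.8%. For DNA replication the counts in GL-1 were 36 and 6 of 53. By these counts, GL-1 had more cell division and DNA replication genes above the controls than below them, while its SHCBP1 was below them.

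The spread of SHCBP1 over the 12 B-cell lymphomas exceeded counting error. The coefficient of variation was 38.4% and the highest value was 3.31 times the lowest, whereas counting alone gives a coefficient of variation of 4.94 to 8.98% in single samples. The variance of the counts was 34.6 times that of counting alone, against 8.60 in the controls, 42.6 in the probable T-cell lymphomas and 2.64 to 9.22 in the 4 lines with replicates. On the log2 scale the SD was 0.59. It was larger than that of 431 of the 500 genes nearest in mean level, whose median SD was 0.37.

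The level of SHCBP1 in these lymphomas was compared with 4 properties of the libraries, with permutation tests and adjustment over the 4. Pearson's r was -0.15 with the log2 number of reads on genes (permutation p = 0.641), 0.25 with the TMM factor (permutation p = 0.440), -0.39 with the share of ambiguous reads (permutation p = 0.205) and 0.13 with the share of reads outside genes (permutation p = 0.672). Spearman's rho was -0.33, 0.29, -0.48 and 0.10, with permutation p-values of 0.298, 0.355, 0.123 and 0.765. All adjusted p-values were 0.473 or more. Without the samples farthest from the median of SHCBP1, replicates 4 and 3, r was 0.08, 0.10, -0.27 and 0.15.

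Genes that follow SHCBP1 were sought over the 12 B-cell lymphomas by Pearson's r of log2 CPM, with permutation p-values adjusted over 15161 genes. No gene passed an adjusted p of 0.05, the smallest being 0.124. At an unadjusted permutation p under 0.05, 547 genes had a positive and 509 a negative r, and by Spearman's rho 514 and 528, with 0 past the adjusted threshold. The genes below are therefore described by r alone. A cut-off of 0.7, chosen after the values were seen, was reached by 213 genes (1.4%), and -0.7 by 117 genes (0.772%).

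The gene most like SHCBP1 was ENSCAFG00000004139, with r = 0.94 and rho = 0.94 over 12 samples. Its CPM ran from 36.5 to 42.2 in the lymphomas with SHCBP1 of 39.1 to 49.2 CPM, and was 92.1 and 85.1 in replicates 5 and 12, the highest for SHCBP1. Within the 7 lymphomas of higher SHCBP1 its r was 0.84. Of the cell division list, ENSCAFG00000017535 was closest, with r = 0.93 and rho = 0.92. It stood at 28.1 to 47.6 CPM in the 5 lymphomas of lower SHCBP1 and at 64.1 to 123 CPM in the 7 others, without overlap. Within the upper 7 its r was 0.51.

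On the opposite side, ENSCAFG00000030686 had r = -0.92 and rho = -0.93, with 90.8 CPM in replicate 3 and 18.4 CPM in replicate 12. ENSCAFG00000003481 had r = -0.87 and rho = -0.88, with 69.9 CPM in replicate 4 and 18.4 CPM in replicate 12. Within the upper 7 lymphomas their r was -0.85 and -0.79. Those 7 are part of the 12 samples by which the genes were picked, so these values are no separate support. For the rest of the 5 genes with the lowest r, it was -0.86, -0.41 and -0.22 there. The adjusted permutation p of the 4 genes named by identifier was 0.124 to 0.126, and the tables used here pair none of them with a symbol.

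**Figure D2:**
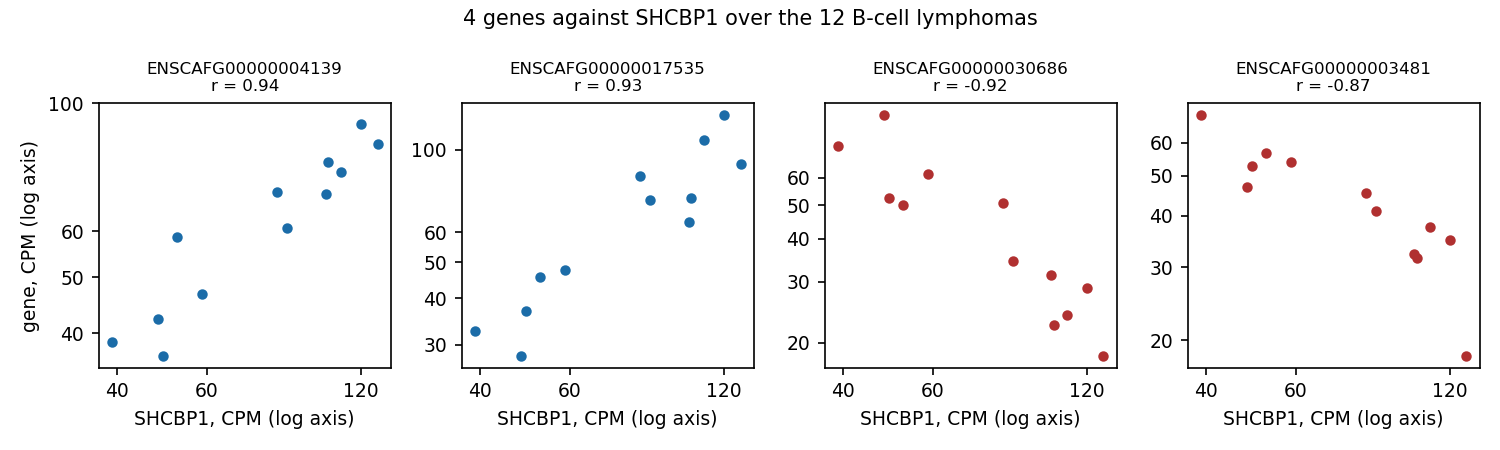
CPM of 4 genes against CPM of SHCBP1 over the 12 B-cell lymphomas (both axes logarithmic, 1 point per lymphoma); the left pair has the highest r of all genes and of the cell division list, and the right pair has the lowest r of genes at 5 CPM or more. The 5 lymphomas with SHCBP1 of 39.1 to 58.7 CPM form 1 cloud and the 7 at 82.1 to 129 CPM another.

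Members of the cell division list mostly had positive r. Of the 125 in the list, 31 (24.8%) had r of 0.7 or more, beside 1.4% of all genes, and 0 had r of -0.7 or less. The median r was 0.40 and 98 of 125 were above 0, against a median of -0.01 over all genes. DNA replication genes followed with a median r of 0.34, with 44 of 53 above 0 and 7 at 0.7 or more. The 5 lists together held 41 of the 213 genes. The remaining ones, most of the 213, are outside the lists.

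The median r was -0.07 for 49 B cell activation genes, of which 3 (6.12%) had r of 0.7 or more, and -0.26 for 67 T cell activation genes, of which 2 (2.99%) did. For 82 extracellular matrix genes it was -0.01, with 0 members at 0.7 or more. The 117 genes at r of -0.7 or less held 0 members of any list. The part of non-tumor cells in the spread of SHCBP1 was not tested.

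**Figure D3:**
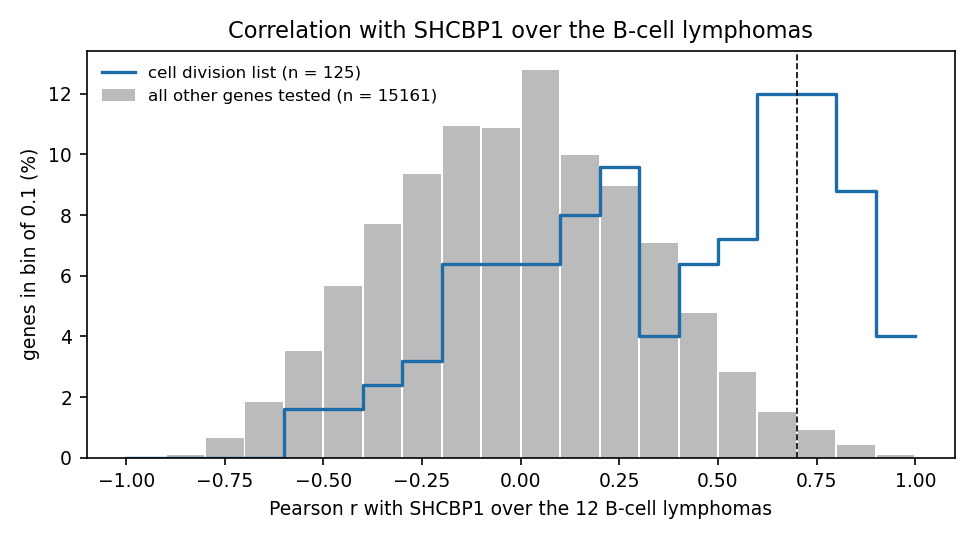
Distribution of Pearson's r with SHCBP1 over the 12 B-cell lymphomas, in bins of 0.1, as a percentage of 15161 genes (grey bars) and of 125 cell division genes (blue line); the dashed line marks r = 0.7. The blue line has 24.8% of its genes to the right of the dashed line, the grey bars 1.4%.

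The 7 lymphomas of higher SHCBP1 were chosen by that level itself, which narrows its range, and are described without a test. There the median r of the cell division list was -0.02, with 59 of 125 above 0, and that of DNA replication was -0.08, with 19 of 53 above 0, beside 7269 of all 15161 genes. The 213 genes had a median r of 0.17, with 143 above 0. The 5 lower lymphomas are too few for a correlation of their own. Without replicates 3 and 4, the median of the cell division list remained 0.40. Without the 3 lymphomas of contradictory label, 0 genes passed the adjusted threshold and 41 of 125 cell division genes had r of 0.7 or more.

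The lines were described separately, since their samples form clusters and no correlation was pooled over them. GL-1 was compared with the mean of the other 4 lines. For SHCBP1 the log2 difference was -6.86, and 11 of the 15162 genes had a lower one. Taken from the counts, the level in CLBL-1 was 345 times that in GL-1 (exact 95% interval 61.7 to 13619) and that in OSW was 372 times (66.6 to 14685). CLBL-1M and CL-1 gave 390 and 383 times. The controls, with their lower level, still had 62.5 times the SHCBP1 of GL-1 (11.1 to 2482). The intervals are wide since GL-1 contributed 1 count, and they cover counting error only.

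The median log2 difference of the cell division genes from the other lines was -0.11, against -0.01 over all genes. By 1 or more, 13 of 125 were lower and 13 higher, beside 1956 (12.9%) and 2479 of all 15162 genes. The lowest member was at -4.15. Of the 105 members with 10 CPM or more in all 16 samples of the other lines, 0 were at 3 counts or fewer in GL-1, a share near the 0.639% of all genes of that level. DNA replication had a median of 0.08 and likewise 0 of 44 such members. The 213 genes of r of 0.7 or more over the lymphomas had a median of -0.06, with 19 lower by 1 or more. Of these 213, 1 gene had a lower log2 difference of GL-1 from the other lines than SHCBP1.

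**Figure D4:**
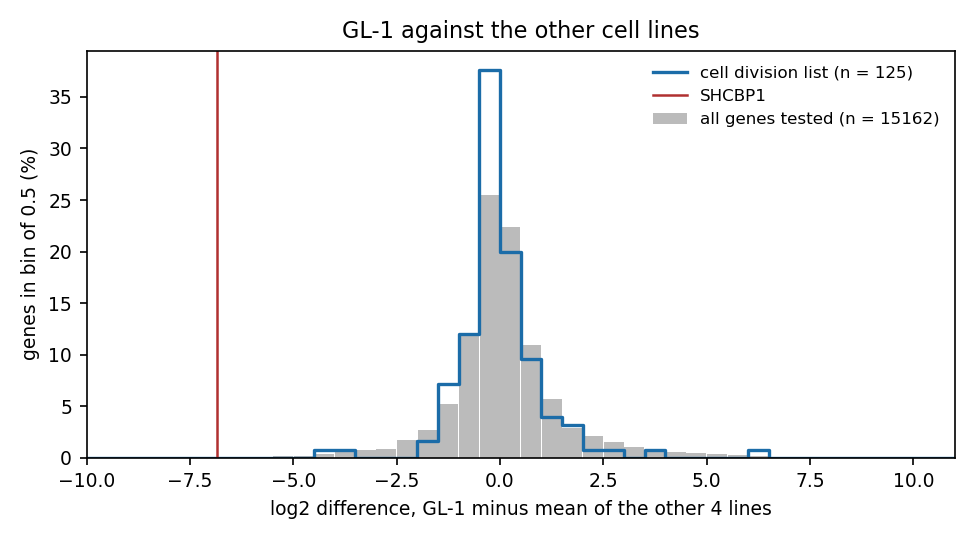
Log2 difference of GL-1 from the mean of the other 4 lines, in bins of 0.5, as a percentage of 15162 genes (grey bars) and of 125 cell division genes (blue line), with SHCBP1 as a red line. SHCBP1 lies at -6.86, below every cell division gene, the lowest of which is at -4.15.

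Loss of a well expressed gene in GL-1 was rare. Of 7040 genes with 10 CPM or more in all 16 samples of the other lines, 45 (0.639%) were at 3 counts or fewer in GL-1, SHCBP1 among them. Of the 45 genes, 13 were above every control in all 16 samples, SHCBP1 included. Of these, ENSCAFG00000013356 had 2 counts in GL-1, 144 to 309 CPM in the other lines and 25.5 to 30.2 CPM in the controls. ENSCAFG00000018859 had 2 counts, 136 to 796 CPM and 19.2 to 56.6 CPM. That both were higher in the other lines than in the controls follows from how the 13 genes were picked.

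Over the means of the 5 lines, each gene centered on its own mean, ENSCAFG00000035602 lay nearest to SHCBP1, with a root mean square difference of 0.257 on the log2 scale. Its mean CPM was 132 for OSW, 116 for CLBL-1, 93.5 for CLBL-1M and 88.3 for CL-1, and GL-1 had 1 count. ENSCAFG00000013356 came next at 0.342. In all, 44 genes were nearer than 1. Such nearness rests on GL-1, since SHCBP1 was nearly level over the other 4 lines.

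Within CLBL-1 and CLBL-1M, the 3 libraries that stood apart had 80.0 to 90.2 CPM of SHCBP1 and the other 7 had 112 to 139 CPM. They also had fewer reads on genes, at 1980761 to 2474777 against 2684136 to 3414487. Of the 3, CLBL-1 replicates 1 and 3 were also the closest pair of replicates of all groups, so that the 3 may not be independent. No correlation was given over these clusters. The mean log2 difference between the 3 and the 7 was -0.51 for SHCBP1. It was negative for 186 (87.3%) of the 213 genes of r of 0.7 or more over the lymphomas, with a median of -0.52, beside 46.8% of all genes and a median of 0. DNA replication genes had a median of -0.52, with 46 of 53 negative, and cell division genes -0.32, with 90 of 125 negative. Of the 117 genes of r of -0.7 or less over the lymphomas, 26 were negative. The genes that accompanied SHCBP1 over the lymphomas were thus mostly lower with it in these 3 libraries, whose choice followed the values of all genes and whose lower depth moves with the difference. The part of depth in it was not tested.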

How the data were processed

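The libraries of the 37 canine samples were made from poly-A RNA and read in pairs of 100 bp. Per the submitters' processing notes and the study's methods, the authors mapped reads to CanFam 3.1 with BWA, removed duplicates and counted reads on Ensembl release 85 genes with HTSeq 0.6.1. The authors deposited these counts with no normalization. Strand settings are not given in the sources used here. Reads outside genes (68.0 to 82.9%) and on more than 1 gene stayed out of totals.

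Genes were kept where the highest CPM exceeded the 40th percentile. edgeR 4.0.16 (R 4.3.3) with TMM factors fitted 1 quasi-likelihood model with 8 groups, and log2 CPM used a prior count of 2. Calls were made at a Benjamini-Hochberg adjusted p of 0.05. Standard errors are the log2 difference over the root of the F statistic. Correlations used NumPy with 100000 two-sided permutations, so that 1e-05 is the smallest p. Procedures were tested on simulated data. Intervals and the 3-count floor cover counting error only. Where nothing says that samples of a line came from separate cultures, p-values measure the spread between these samples, which may be technical. No replicates were counted as 1 sample, since the closest pair still differed beyond sampling noise (chi-square over degrees of freedom 1.35). This pair was CLBL-1 replicates 1 and 3, and the next was CL-1 replicates 1 and 2 at 2.62. Such a difference does not show that the 2 samples of a pair are independent.

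SHCBP1, its contrasts and all lists were chosen with earlier results of these data known. Named genes were SHCBP1, FLT3, those of the highest and lowest r at a mean of 5 CPM or more, the leading genes absent in GL-1 and those nearest over the lines, limited to the first ones because the tables used here pair no identifiers with symbols. For the same reason marker lists, the paralog, pathway genes by symbol, genome neighbors and sequences were not analysed here, and identifiers under 5 functional terms of the study served as lists. Alternatives were RLE size factors, DESeq2 1.42.0, other filters, fewer samples, a replicate block and a threshold of 1e-05.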

Additional observations from a re-analysis of the deposited data

Results flagged for a closer look

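SHCBP1 in GL-1 stood out because the single GL-1 sample, at 0.313 CPM, lay below all 4 controls, while all 16 samples of the other lines lay above them. FLT3 stood out for the opposite, since GL-1, at 443 CPM, lay above all controls and the other 16 line samples lay below them. These differences between lines were not tested, because GL-1 has 1 sample. The study had already singled out both genes for these directions in GL-1. That they stood out here was therefore fixed in advance and adds no support. No sample of a group of 4 or 5 was far enough from the rest to stand out in SHCBP1 or FLT3 by Dixon's criterion.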

How the results depend on the processing

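Of 468 values recomputed under alternatives, 436 kept their direction and their side of the threshold, or moved less than the limit set for them. Many alternatives left out a library that was not in the contrast. Exchanging the CLBL names leaves the mean of both unchanged by construction. The 436 are therefore partly fixed in advance and do not measure robustness. RLE size factors shifted the median of all genes relative to controls by -0.16 to -0.22 on the log2 scale, and SHCBP1 with it, to 1.87 to 2.73. At the study's threshold of 1e-05, SHCBP1 passed in neither called contrast (log2 differences -0.82 and -0.46). At that threshold the cell division members higher than controls were 36 (CL-1), 56 (OSW), 27 (B-cell lymphomas) and 23 (probable T-cell lymphomas). CLBL-1 had 63 and CLBL-1M 68. The DNA replication members were, in the same order, 24, 25, 16, 15, 26 and 30. The shares of all genes higher were, again in that order, 4.54, 5.61, 2.38, 1.33, 6.91 and 6.82%. With only the 2 groups fitted, the B-cell minus probable T-cell difference of -0.82 missed the threshold. Leaving out in turn each of the 24 libraries outside the B-cell lymphomas and GL-1, it ranged from -0.97 to -0.63, that from the CLBL lines from -0.48 to -0.39, and OSW minus CL-1 from -0.11 to 0.049, which turned sign without OSW replicate 1 or CL-1 replicate 1. Why a call was lost was not tested. Exchanging the CLBL names turned CLBL-1 minus CLBL-1M to 0.18 by construction, and leaving out the 3 CLBL libraries that stood apart, chosen after seeing the data, turned CLBL minus OSW to 0.032. With control replicate 4 as the lone control, which is then assumed to vary like other groups, SHCBP1 exceeded it by 3.40 (CL-1), 3.36 (OSW), 3.39 (CLBL-1M), 3.22 (CLBL-1), 3.66 (probable T-cell lymphomas) and 2.85 (B-cell lymphomas). The mean of CL-1 was 133 CPM without TMM. Asking for 5 CPM in the other lines gave 80 genes absent in GL-1, and allowing 0 counts gave 22, without SHCBP1. No gene followed SHCBP1 past the adjusted threshold under any of the 17 alternatives, and 28 to 41 cell division genes had r of 0.7 or more. Replicate numbers did not pair the samples (mean correlation of deviations -0.0098 for equal numbers and 0.0017 for others). The replicate block gave -1.21 for the B-cell minus probable T-cell difference and -0.77 for that from the CLBL lines, and changed none of the 6 calls. Depth limits GL-1, whose 1 count leaves its level uncertain by counting alone.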
